A study of Mus musculus with 5 samples.

Results

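The chromobox (CBX) genes encode readers of methylated histone H3. This report describes 7 of them, CBX1, CBX2, CBX3, CBX5, CBX6, CBX7 and CBX8, taken by symbol from a table of 50867 genes. CBX1 was chosen by its counts, which differed in opposite directions with the K118R constructs in the 2 backgrounds studied. Its values in those contrasts are therefore a description. The other 6 genes were taken as its family. RNA was sequenced from the mouse line Ba/F3, pro-B cells that need interleukin-3, after lentiviral infection. By its title, the study is about a fusion oncogene in paediatric leukaemia and how stable its transcript is. There were 5 groups, named by construct as S_PXT1_K118R, S_PXT1, WT_K118R, WT and PMSCV, and each held 1 library. K118R denotes a change of lysine to arginine, and PMSCV, named for a retroviral vector, is the baseline here. The labels do not spell out S or WT and do not say whether cells were pooled, sorted or cloned after infection.

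With 1 library per group no test was possible, no p-value is given, and every interval below is a 95% interval that covers counting error only. The libraries held between 250409 counts in S_PXT1_K118R and 351693 counts in WT, so that 1 count was worth 2.92 to 3.93 CPM (counts scaled to library size). The table assigns reads to human gene models although the cells are mouse, so how many mouse reads reach a model depends on its sequence, and levels are compared between libraries rather than between genes. Of 14 markers of pro-B and interleukin-3 dependent cells, between 7 and 12 were at 0 counts in a library. CD79A, CD79B, VPREB1, IGLL1, FLT3 and IL3RA were at 0 in all 5 libraries, and GATA2 and SPI1 supplied nearly all of the list's counts. Squamous epithelium markers, which Ba/F3 cells are not known for, summed to 1 count in S_PXT1_K118R, 0 in S_PXT1, 455 in WT_K118R, 1045 in WT and 316 in PMSCV. Prostate epithelium markers summed to 0 counts in S_PXT1_K118R, 1 in S_PXT1, 176 in WT_K118R, 178 in WT and 177 in PMSCV. KLK3 among them had 0, 0, 71, 62 and 51 counts in the same order. The source of these reads was not tested. The S_PXT1_K118R and S_PXT1 libraries also had counts for 7044 and 7393 genes, against 11492 to 11712 genes in the other libraries. What these libraries share, and fewer cells of a type as opposed to less RNA per cell, cannot be told apart from an effect of the construct in any difference below.

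CBX proteins fall into a heterochromatin branch and a Polycomb branch. CBX1, CBX3 and CBX5 encode HP1 beta, HP1 gamma and HP1 alpha, whose chromodomain binds histone H3 methylated at lysine 9 and whose chromoshadow domain forms dimers and recruits partners. CBX2, CBX6, CBX7 and CBX8 encode chromodomain subunits of Polycomb repressive complex 1 (PRC1), which reads histone H3 methylated at lysine 27 and helps keep developmental genes silent. In blood, Polycomb subunits are known for controlling self-renewal and differentiation of progenitors, and HP1 proteins for maintaining silent pericentric chromatin.

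The HP1 genes are close in sequence, and the results turn on CBX1 differing while CBX5 did not, so the stretch where the 3 mouse genes are most alike is shown. It is the 90-base window of the Cbx1 coding sequence with most bases shared with Cbx3 and Cbx5, and it lies in the part that encodes the chromodomain. Capitals mark bases that differ from Cbx1, and each window spans an intron in the genome.
Cbx1, coding bases 94 to 183, GRCm38 chr11:96800901-96801471, plus strand: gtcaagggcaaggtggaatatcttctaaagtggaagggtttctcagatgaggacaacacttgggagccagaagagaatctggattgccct
Cbx3, coding bases 121 to 210, GRCm38 chr6:51475327-51478480, plus strand: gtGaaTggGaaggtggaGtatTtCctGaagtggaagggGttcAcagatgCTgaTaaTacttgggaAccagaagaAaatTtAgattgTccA
Cbx5, coding bases 91 to 180, GRCm38 chr15:103205636-103213118, minus strand: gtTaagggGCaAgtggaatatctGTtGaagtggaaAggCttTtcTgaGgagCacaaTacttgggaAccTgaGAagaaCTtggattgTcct
Even in this window Cbx3 differed from Cbx1 at 19 bases and Cbx5 at 21 bases. Over the whole coding sequence, Cbx1 was identical to Cbx3 at 71.4% of 525 aligned bases and to Cbx5 at 70.1% of 546. The longest run of identical bases was 11 between Cbx1 and Cbx3 and 20 between Cbx1 and Cbx5. These figures compare mouse coding sequences with each other, whereas the counts are of reads on human gene models. They cannot show which human model a mouse read reaches, and reads shared between the HP1 models were not tested for. The sequences come from the mouse GENCODE M21 transcripts, and the read length was not given in the sources used here.

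CBX1, encoding HP1 beta, stood at a high level in 2 libraries and at a low level in 3. It had 68 counts in S_PXT1_K118R, 181 in S_PXT1, 228 in WT_K118R, 84 in WT and 57 in PMSCV. The levels were 267 CPM (208 to 339) in S_PXT1_K118R, 706 CPM (607 to 816) in S_PXT1, 676 CPM (591 to 769) in WT_K118R, 246 CPM (196 to 304) in WT and 203 CPM (154 to 263) in PMSCV. The intervals of S_PXT1 and WT_K118R overlapped each other, those of S_PXT1_K118R, WT and PMSCV overlapped one another, and no high library's interval reached a low one's. The gene (ENSG00000108468) lies at chromosome 17, 48070052 to 48101521, minus strand, by the table's own human coordinates, on a build not given in the sources used here.

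**Figure D1:**
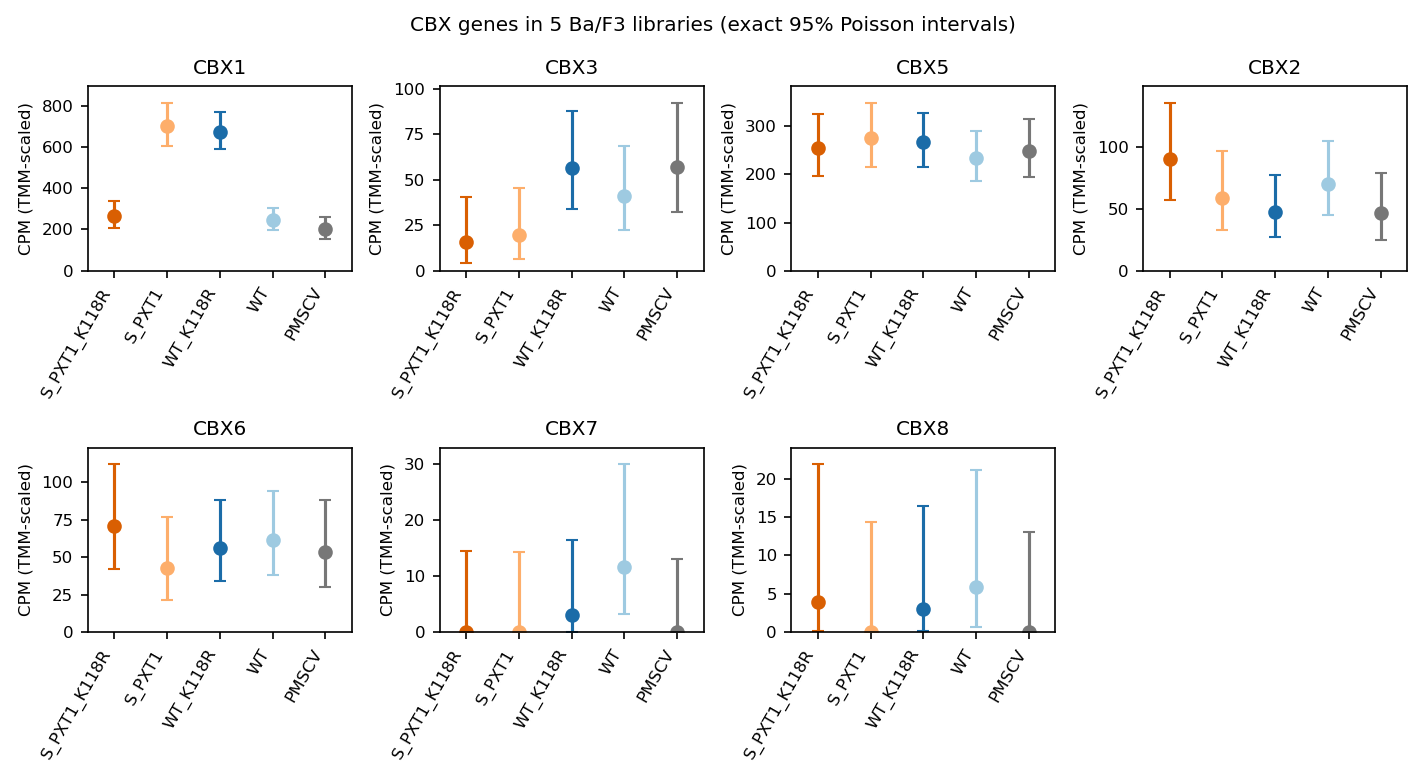
Level of each CBX gene in CPM (vertical axis, starting at 0) in the 5 libraries, with exact 95% Poisson intervals as bars and 1 point per library. CBX1 is at 706 CPM in S_PXT1 and 676 CPM in WT_K118R and between 203 and 267 CPM elsewhere, whereas CBX5 lies between 234 and 277 CPM in all 5.

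The K118R substitution was compared with its unsubstituted counterpart in each background. With S_PXT1_K118R, CBX1 was 2.64-fold lower than with S_PXT1 (1.99 to 3.54). With WT_K118R it was 2.75-fold higher than with WT (2.13 to 3.58). The 2 contrasts share no library, and the ratio of the second fold to the first was 7.23 (4.91 to 10.8). A gene averaging 20 counts or more over the libraries is called well covered below, and 1547 genes were. Of these, 4.78% were 2-fold or more lower with S_PXT1_K118R than with S_PXT1, and 2.46% were 2-fold or more higher with WT_K118R than with WT. In all, 7 well-covered genes, 0.452%, were lower in the first contrast and higher in the second by at least 2-fold. Besides CBX1 these were NFKBIA, FN1, ARCN1, ZCCHC2, POSTN and the unnamed model AL589666.1, and 3 genes, 0.194%, showed the reverse. Among all 13352 genes averaging 1 CPM or more, the shares were 3.85% and 3.45%. CBX1 was selected for this pattern, so these shares describe how common it was.

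**Figure D2:**
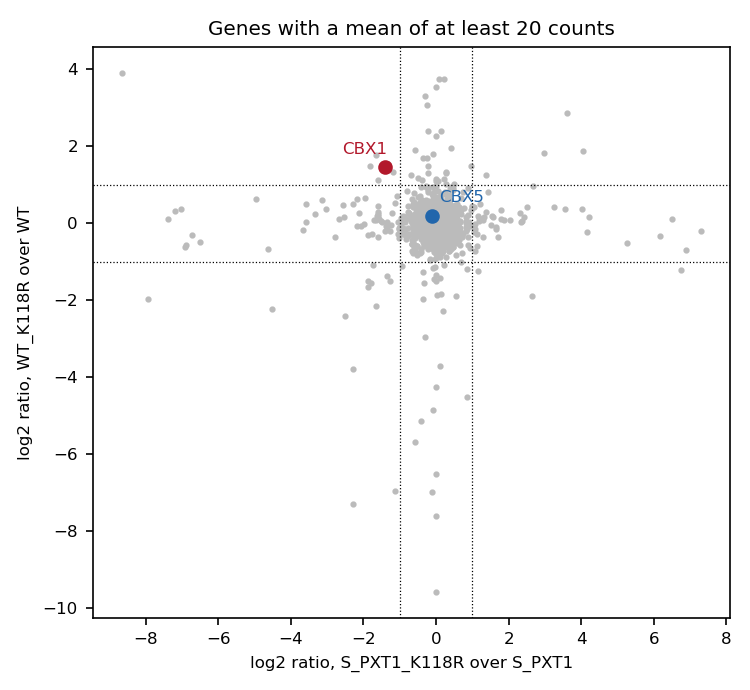
Log2 ratio of S_PXT1_K118R over S_PXT1 (horizontal axis) against log2 ratio of WT_K118R over WT (vertical axis) for the 1547 well-covered genes, 1 point per gene, with dotted lines at 2-fold. CBX1 lies in the upper left field with 6 other genes, and CBX5 lies near the centre.

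The PMSCV count did not enter the choice of CBX1, but the counts set against it below did, so these folds too are a description. At 57 counts, PMSCV stood with the low libraries. CBX1 with S_PXT1_K118R was 1.32-fold of its PMSCV level (0.914 to 1.91) and with WT 1.21-fold (0.856 to 1.73), and both intervals include 1. In S_PXT1 it was 3.48-fold above PMSCV (2.57 to 4.77) and in WT_K118R 3.33-fold above (2.48 to 4.54). These 4 folds share the PMSCV library. Among the well-covered genes, the median log2 ratio was 0.20 for S_PXT1 over PMSCV and 0.10 for WT_K118R over PMSCV, which are shifts far below CBX1's 1.79 and 1.73. CBX1 ranked 24th from the top in each of these comparisons.

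Between the constructs, CBX1 was 2.87-fold higher with S_PXT1 than with WT (2.21 to 3.77) and 2.53-fold lower with S_PXT1_K118R than with WT_K118R (1.92 to 3.36). A pair of libraries in which a gene was at least 2-fold above each of the other 3 was looked for among all 10 pairs. For the pair S_PXT1 and WT_K118R this held for CBX1 and ZCCHC2, 2 of 1547 genes. Across the other pairs the number ran from 0 to 9. The 9 were for WT and PMSCV and included KRT4, KRT13, IGHG1, IGHG2 and IGKC. Squamous markers summed to 0 and 455 counts in the CBX1-high libraries S_PXT1 and WT_K118R. In the CBX1-low libraries S_PXT1_K118R, WT and PMSCV they summed to 1, 1045 and 316. Members of that list differed in direction between WT_K118R and WT. KRT4 and KRT13 had 0 and 1 counts in WT_K118R against 262 and 266 in WT. KRT6A and KRT5 had 176 and 161 counts in WT_K118R, against 83 and 106 in WT and 58 and 76 in PMSCV. All of these were at 0 in S_PXT1 and S_PXT1_K118R. Plasma cell markers summed to 14 and 54 counts in S_PXT1 and WT_K118R, against 9 in S_PXT1_K118R, 487 in WT and 692 in PMSCV. Smooth muscle and fibroblast markers summed to 188 and 598 counts in S_PXT1 and WT_K118R, against 195, 742 and 508. Among them, COL1A1 and COL1A2 had 236 and 102 counts in WT_K118R against 142 and 68 in WT. MYH11 had 1 against 215, and DCN 21 against 61. The part of these marker lists in the CBX1 difference was not tested.

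CBX5, encoding HP1 alpha, varied little. It had 65 counts in S_PXT1_K118R, 71 in S_PXT1, 90 in WT_K118R, 80 in WT and 70 in PMSCV. Its levels lay between 234 and 277 CPM, a spread of 1.18-fold, and the intervals of all 5 libraries overlapped. With S_PXT1_K118R it was 0.923-fold of its S_PXT1 level (0.649 to 1.31), and with WT_K118R 1.14-fold of its WT level (0.834 to 1.56). The ratio of these folds was 1.23 (0.767 to 1.99). Of well-covered genes, 93.5% had a larger range over the libraries than CBX5 and 10.5% a larger range than CBX1. CBX5 (ENSG00000094916) lies at chromosome 12, 54230940 to 54280133, minus strand.

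CBX3, encoding HP1 gamma, was low in both S_PXT1 libraries. It had 4 counts in S_PXT1_K118R, 5 in S_PXT1, 19 in WT_K118R, 14 in WT and 16 in PMSCV. The level was 3.58-fold lower with S_PXT1_K118R than with WT_K118R (1.19 to 14.5). It was 3.62-fold lower with S_PXT1_K118R than with PMSCV (1.17 to 14.9) and 2.92-fold lower with S_PXT1 than with PMSCV (1.02 to 10.2). With reads of CBX3 pseudogene rows added, CBX3 was at 0.531-fold of WT_K118R and 0.465-fold of PMSCV in S_PXT1_K118R, and at 0.404-fold of PMSCV in S_PXT1. For S_PXT1 over WT the interval of the fold of 0.476 included 1 (0.134 to 1.40). The K118R folds were 0.807 in the S_PXT1 background (0.160 to 3.75) and 1.38 in the WT background (0.654 to 2.96), and both intervals include 1. The first of these was 1.15 with the pseudogene rows added. At this depth a lower CBX3 in the S_PXT1 libraries was a common finding: 44.9% of the 13352 genes averaging 1 CPM or more were at least 2-fold lower with S_PXT1_K118R than with PMSCV, 43.8% with S_PXT1 than with PMSCV, and 44.0% with S_PXT1_K118R than with WT_K118R. The squamous markers were also low in the S_PXT1 libraries, at 0 and 1 counts against 316 to 1045 elsewhere, as were the prostate markers. CBX3 was at 56.9 CPM in PMSCV (32.5 to 92.4), 56.3 CPM in WT_K118R (33.9 to 87.9) and 40.9 CPM in WT (22.4 to 68.7), with overlapping intervals. In the same order, the squamous sums were 1124, 1348 and 3056 CPM and the prostate sums 629, 522 and 521 CPM. The part of these markers in the CBX3 difference was not tested. CBX3 (ENSG00000122565, chromosome 7, 26201162 to 26213356, plus strand) overlaps HNRNPA2B1, an RNA-binding protein gene, on the opposite strand, which had 2174 to 2858 counts. The strand setting of the counting was not given in the sources used here, so reads of the shared stretch cannot be assigned with certainty.

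**Figure D3:**
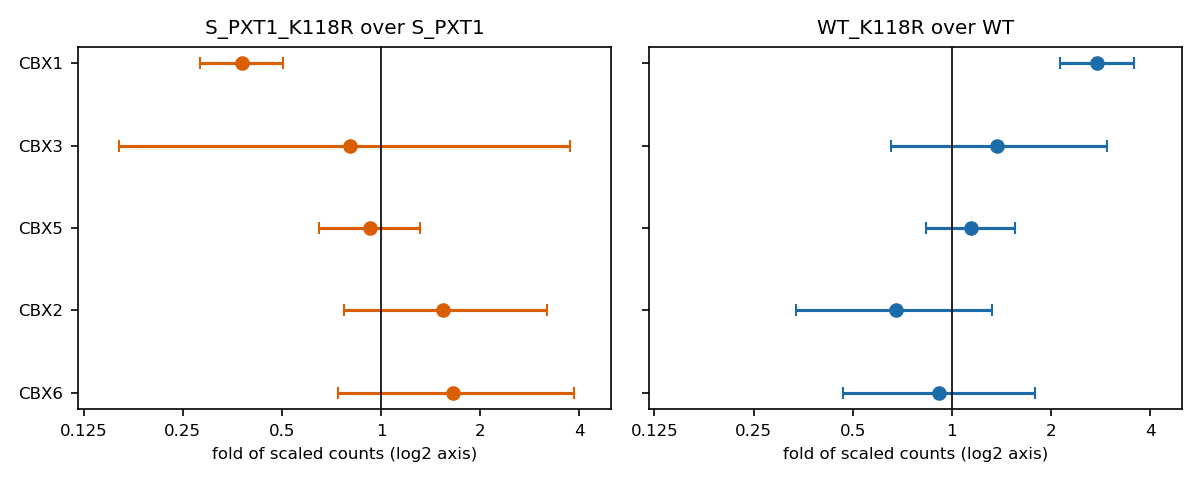
Fold of scaled counts (horizontal axis, log2 scale) for S_PXT1_K118R over S_PXT1 and for WT_K118R over WT, for the 5 CBX genes with counts in all libraries, with exact 95% intervals of counting error as bars. The CBX1 intervals lie wholly below and wholly above 1, and the intervals of CBX3, CBX5, CBX2 and CBX6 include 1 in both panels.

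The makeup of the HP1 counts needs no scaling between libraries. CBX1 supplied 49.6% of the HP1 counts in S_PXT1_K118R (41.0 to 58.3), 70.4% in S_PXT1 (64.4 to 75.9), 67.7% in WT_K118R (62.4 to 72.6), 47.2% in WT (39.7 to 54.8) and 39.9% in PMSCV (31.8 to 48.4). CBX5 supplied 47.4%, 27.6%, 26.7%, 44.9% and 49.0% in the same libraries. These are exact binomial intervals of counting error, and the shares are of reads per gene model, not of protein or of transcripts. In S_PXT1 and WT_K118R the CBX1 share was above that in S_PXT1_K118R, WT and PMSCV with no overlap of intervals. All of these CBX1 counts except that of PMSCV entered the choice of CBX1, so this separation is a description.

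**Figure D4:**
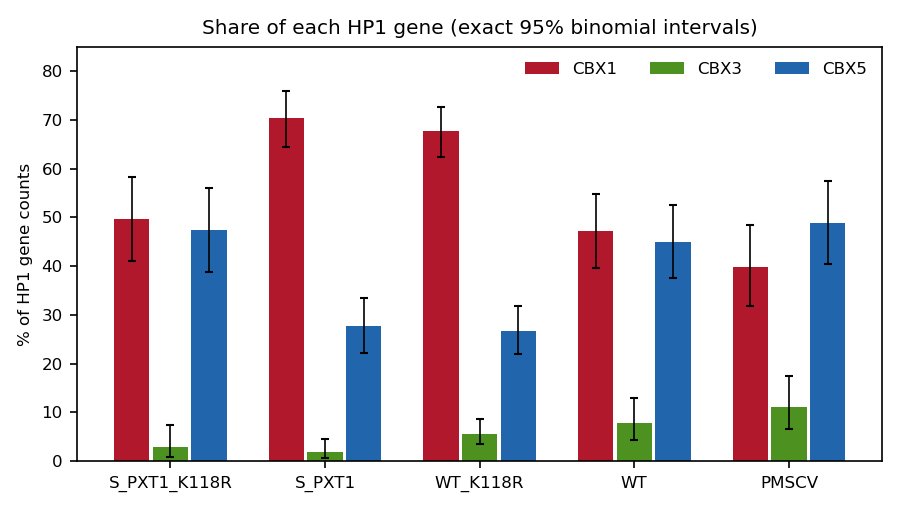
Share of the summed CBX1, CBX3 and CBX5 counts supplied by each gene (vertical axis, percent) in the 5 libraries, with exact 95% binomial intervals. CBX1 takes 70.4% in S_PXT1 and 67.7% in WT_K118R and between 39.9% and 49.6% elsewhere.

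Summed over the HP1 genes, the level was 1.86-fold lower with S_PXT1_K118R than with S_PXT1 (1.51 to 2.31), on 137 counts against 257. It was 1.92-fold higher with WT_K118R than with WT (1.60 to 2.31), on 337 counts against 178. Without CBX1 these sums were 69 counts against 76, a fold of 0.915 (0.651 to 1.29), and 109 counts against 94, a fold of 1.18 (0.884 to 1.57). Without CBX1 both intervals include 1.

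The Polycomb CBX genes had few counts. CBX2 (ENSG00000173894, chromosome 17, 79778132 to 79787983, plus strand), a PRC1 subunit known for compacting chromatin, had 23 counts in S_PXT1_K118R, 15 in S_PXT1, 16 in WT_K118R, 24 in WT and 13 in PMSCV. Its K118R folds were 1.55 in the S_PXT1 background (0.773 to 3.19) and 0.676 in the WT background (0.335 to 1.33). CBX6 (ENSG00000183741, chromosome 22, 38861450 to 38872314, minus strand), another PRC1 chromodomain subunit, had 18, 11, 19, 21 and 15 counts in S_PXT1_K118R, S_PXT1, WT_K118R, WT and PMSCV. Its folds were 1.65 (0.738 to 3.87) and 0.917 (0.466 to 1.79). Each of these intervals includes 1 and extends past 2-fold in 1 direction, so a 2-fold difference in that direction was not excluded at this depth.

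CBX7 (ENSG00000100307, chromosome 22, 39120167 to 39152674, minus strand), a PRC1 subunit of self-renewing stem cells, had 4 counts in WT, 1 in WT_K118R and 0 in the other 3 libraries. CBX8 (ENSG00000141570, chromosome 17, 79792132 to 79801683, minus strand) had 1 count in S_PXT1_K118R, 0 in S_PXT1, 1 in WT_K118R, 2 in WT and 0 in PMSCV. In the libraries at 0, the floor of 3 counts is 10.7 to 11.8 CPM and the exact upper limit 13.1 to 14.5 CPM, so neither gene can be ordered between libraries. For CBX7 the ratio of WT_K118R to WT was 0.253, with an interval from 0.00514 to 2.56.

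The Polycomb sum, 42 counts with S_PXT1_K118R against 26 with S_PXT1, had a fold of 1.63 (0.976 to 2.77). In the WT background it was 37 counts with WT_K118R against 51 with WT, a fold of 0.735 (0.468 to 1.14). The signs are the reverse of those of CBX1, and each interval includes 1. The ratio of the second fold to the first was 0.454 (0.224 to 0.905), an interval of counting error that lies below 1. With S_PXT1_K118R the sum was 1.66-fold of that in PMSCV (1.004 to 2.78), on 42 counts against 28.

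Counted by the 2-fold threshold, each comparison had 0 to 3 of the 7 genes higher and 0 to 3 lower, and the shares of all 13352 genes stand beside them. With S_PXT1_K118R over S_PXT1, CBX8 was higher on 1 count, against 15.2% of all genes, and CBX1 was lower, against 17.6%. In WT_K118R over WT, CBX1 was higher, against 19.2% of all genes, and CBX7 lower, against 20.9%. For S_PXT1 over PMSCV, CBX1 was higher, against 8.64%, and CBX3 lower, against 43.8%. S_PXT1_K118R over PMSCV had CBX8 higher, against 8.39%, and CBX3 lower, against 44.9%. In WT over PMSCV, CBX7 and CBX8 were higher, on 4 counts and 2 counts, against 20.3%, and none was lower, against 23.2%. WT_K118R over PMSCV had CBX1, CBX7 and CBX8 higher, against 19.9%, and none lower, against 24.0%. For S_PXT1 over WT, CBX1 was higher, against 9.02%, and CBX3, CBX7 and CBX8 lower, against 42.5%. In S_PXT1_K118R over WT_K118R, none was higher, against 8.94%, and CBX1, CBX3 and CBX7 were lower, against 44.0%. Of these 13352 genes, 1547 were well covered. CBX1 and CBX5 were the well-covered members, and CBX5 passed 2-fold in 0 of the 8 comparisons. Among well-covered genes, 3.36% were higher for S_PXT1_K118R over S_PXT1 and 2.84% lower for WT_K118R over WT. CBX1 was higher for S_PXT1 over PMSCV, against 3.49% higher and 7.82% lower, and for WT_K118R over PMSCV, against 2.84% higher and 2.71% lower. For S_PXT1_K118R over PMSCV the shares were 3.10% higher and 8.34% lower, and for WT over PMSCV 2.71% higher and 2.65% lower, with neither member past 2-fold. Between constructs, CBX1 was higher for S_PXT1 over WT, against 3.04% higher and 7.05% lower, and lower for S_PXT1_K118R over WT_K118R, against 2.78% higher and 7.82% lower.

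Pseudogene copies took few reads next to CBX1 and CBX5, but not next to CBX3. Of 5 rows named as CBX1 pseudogenes 2 had a count, with at most 1 in any library, and of 9 rows named as CBX3 pseudogenes 6 had a count, again at most 1. In S_PXT1_K118R the CBX3 pseudogene rows held 4 counts in all, as many as CBX3 itself. The CBX5 pseudogene had 1 count in S_PXT1_K118R. No other gene model overlapped CBX1, CBX2 or CBX6, and the models that overlap CBX5, CBX7 and CBX8 were at 0 counts in all libraries.

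Per kilobase, on the authors' FPKM scale, CBX1 had a level of 57.3 to 187 and CBX5 of 13.3 to 16.0, ahead of CBX2 at 7.51 to 15.0, CBX3 at 2.23 to 8.39 and CBX6 at 3.77 to 6.38. CBX7 did not exceed 1.17 FPKM and CBX8 did not exceed 1.07. The lengths are those of human models, from 3734 bases for CBX1 to 17115 for CBX5, and the share of each model that mouse reads can match was not measured, so this order holds for the table and not for the transcripts.

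The machinery around these proteins was examined through lists of genes. PRC2 writes the lysine 27 mark that Polycomb CBX proteins read, and the 8 of its 12 listed genes that were well covered had ratios under 2-fold in both K118R contrasts. Their median log2 ratio was -0.04 for S_PXT1_K118R over S_PXT1 and -0.05 for WT_K118R over WT, against -0.02 and 0.00 over all such genes. At 2-fold, 3.36% of all well-covered genes were higher and 4.78% lower in the first contrast, and 2.46% and 2.84% in the second, so a count of 0 among so few genes is near the background. EED, which binds the mark, had 53 counts in S_PXT1_K118R, 66 in S_PXT1, 93 in WT_K118R, 82 in WT and 66 in PMSCV. SUZ12, the core scaffold subunit, had 123, 108, 117, 149 and 115 counts in S_PXT1_K118R, S_PXT1, WT_K118R, WT and PMSCV. RBBP4, a histone-binding subunit, had 17 and 27 counts in S_PXT1_K118R and S_PXT1, a fold of 0.635 (0.325 to 1.21). JARID2, an accessory subunit, had 35 to 47 counts in the 5 libraries. The counts summed over the list gave folds of 1.02 (0.940 to 1.11) for S_PXT1_K118R over S_PXT1 and 1.01 (0.937 to 1.09) for WT_K118R over WT.

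PRC1 partners and PRC1-linked factors likewise had 0 of 9 well-covered genes past 2-fold in either K118R contrast, against those same background shares, and their summed folds were 1.01 (0.917 to 1.11) and 1.08 (0.989 to 1.17). RNF2, the catalytic RING subunit that ubiquitinates histone H2A, had 30, 22, 30, 31 and 24 counts in S_PXT1_K118R, S_PXT1, WT_K118R, WT and PMSCV. HDAC2, a histone deacetylase, had 170 counts in WT_K118R against 99 in WT, a fold of 1.74 (1.35 to 2.25), and 128 in S_PXT1_K118R against 109 in S_PXT1, a fold of 1.18 (0.910 to 1.54). BCORL1, a corepressor of a variant complex, had 31 counts in WT_K118R against 19 in WT, a fold of 1.65 (0.905 to 3.10). KDM2B, which brings a variant PRC1 to CpG islands, had 20 counts in 4 libraries and 27 in WT. PCGF5, a RING finger partner picked out for its values, had 32 counts in WT_K118R and 0, 0, 1 and 4 in S_PXT1_K118R, S_PXT1, WT and PMSCV.

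On the HP1 side, 0 of 7 well-covered HP1 partners were past 2-fold in either K118R contrast, which is again near the background. Of the 29 that averaged 1 CPM or more, 3 were higher and 8 lower with S_PXT1_K118R than with S_PXT1, against 15.2% and 17.6% of all genes. With WT_K118R, 3 were higher and 3 lower than with WT, against 19.2% and 20.9%. NIPBL, the cohesin loader, had 188 counts in S_PXT1_K118R against 220 in S_PXT1, a fold of 0.862 (0.705 to 1.05), and 237 in WT_K118R against 233 in WT, a fold of 1.03 (0.857 to 1.24). DNMT3A, a DNA methyltransferase, had 50 and 44 counts in S_PXT1_K118R and S_PXT1 and 78 and 72 in WT_K118R and WT. KMT5B, which methylates lysine 20 of histone H4, had 32 to 47 counts. TRIM33, a chromatin reader and ubiquitin ligase, was low in PMSCV, with 43 counts against 82 to 102 elsewhere. Of 22 listed genes that write or erase lysine 9 methylation or serve those enzymes, KDM3B, a lysine 9 demethylase, alone was well covered. It had 63 counts in S_PXT1_K118R, 76 in S_PXT1, 82 in WT_K118R, 89 in WT and 61 in PMSCV. The methyltransferases themselves were sparse, with SUV39H2 at 7, 0, 10, 12 and 8 counts and SETDB1 at 1, 1, 15, 20 and 4 counts in S_PXT1_K118R, S_PXT1, WT_K118R, WT and PMSCV.

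Of 20 other chromodomain proteins, 10 were well covered and 0 of these were past 2-fold, near the background, with median log2 ratios of 0.11 for S_PXT1_K118R over S_PXT1 and -0.03 for WT_K118R over WT. Of all 20, at 1 CPM or more, 2 were higher and 3 lower with S_PXT1_K118R, against 15.2% and 17.6%, and 1 higher and 0 lower with WT_K118R, against 19.2% and 20.9%. The largest differences among the well-covered ones were those of CHD6, CHD9, MORF4L1 and ARID4B, each on 16 to 38 counts and each with intervals that include 1. Among the erasers of Polycomb marks, ASXL1, the partner of the BAP1 deubiquitinase, had 24 counts in S_PXT1_K118R against 72 in S_PXT1, 2.98-fold lower (1.85 to 4.94). In the WT background it had 45 counts in WT_K118R against 42 in WT, a fold of 1.09 (0.697 to 1.69), and it had 21 in PMSCV. ASXL1 was thus highest in S_PXT1, and in WT_K118R it was 1.79-fold of its PMSCV level (1.04 to 3.16). KDM6A, a lysine 27 demethylase, had 219 and 191 counts in S_PXT1_K118R and S_PXT1, and 262 and 238 in WT_K118R and WT. Of 14 genes listed as Polycomb targets in blood progenitors, ID2, an inhibitor of helix-loop-helix factors, alone was well covered. It was 3.72-fold lower with S_PXT1_K118R than with S_PXT1 (1.67 to 9.39), on 8 counts against 30. With WT_K118R it had 13 counts against 38 with WT, a fold of 0.347 (0.169 to 0.665). Summed over the target list, the fold was 0.528 (0.300 to 0.905) for S_PXT1_K118R over S_PXT1 and 0.434 (0.266 to 0.692) for WT_K118R over WT. ID2 held 8 of 22 list counts in S_PXT1_K118R against 30 of 42 in S_PXT1, and 13 of 27 in WT_K118R against 38 of 63 in WT. Of the 8 targets averaging 1 CPM or more, 1 was higher and 3 lower by 2-fold with S_PXT1_K118R, against 15.2% and 17.6% of all genes, with a median log2 ratio of 0. With WT_K118R 1 was higher and 4 lower, against 19.2% and 20.9%, with a median of -1.13. CDKN2A, the cell cycle inhibitor locus known for Polycomb silencing, had 2 to 8 counts.

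The genes most like CBX1 over the 5 libraries were found among 1543 well-covered genes, by the distance between log2(CPM + 1) profiles centred on their means. ZCCHC2, a zinc knuckle protein, was nearest at a distance of 0.26, with 29 counts in S_PXT1_K118R, 73 in S_PXT1, 104 in WT_K118R, 36 in WT and 29 in PMSCV. Its K118R folds were 0.401 (0.251 to 0.624) and 2.93 (1.99 to 4.40). ILRUN, a regulator of inflammation and lipids, lay at 0.71 and had 51, 72, 103, 46 and 34 counts in S_PXT1_K118R, S_PXT1, WT_K118R, WT and PMSCV. UHRF2, a RING finger protein with domains that bind methylated lysine 9 and modified DNA, came next at 0.78. It had 94 counts in S_PXT1_K118R, 164 in S_PXT1, 214 in WT_K118R, 121 in WT and 94 in PMSCV, with K118R folds of 0.578 (0.444 to 0.749) and 1.79 (1.43 to 2.26). RAP2C, a small GTPase, and MINDY3, a deubiquitinase, followed at 0.96 and 0.98. All 5 were higher in S_PXT1 and WT_K118R than in the other 3 libraries, as the ranking requires, and over 5 libraries such likeness is a description.

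**Figure D5:**
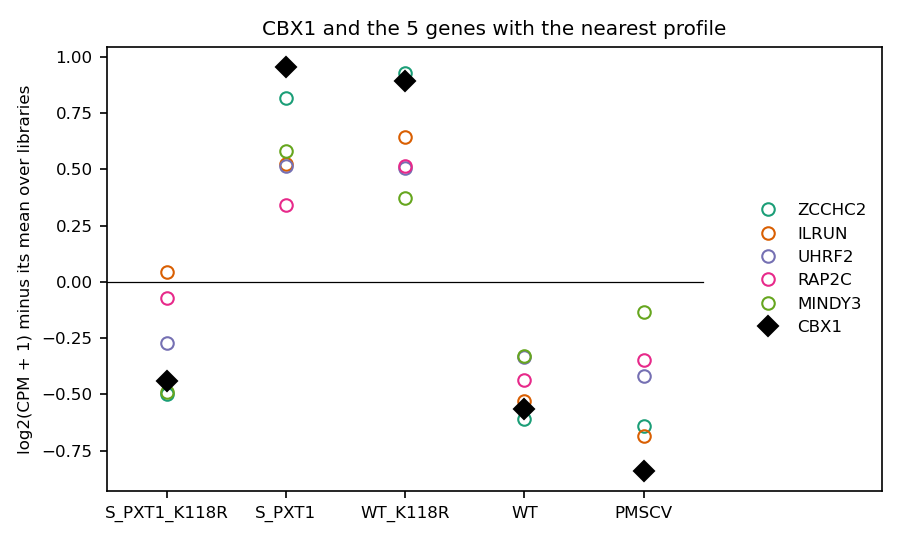
Log2(CPM + 1) minus its mean over the 5 libraries (vertical axis) for CBX1 (black diamonds) and its 5 nearest genes (open circles). ZCCHC2 lies close to CBX1 in all 5 libraries, at a distance of 0.26, and the other 4 genes span a narrower range than CBX1.

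Genes near CBX3 by the same measure were HSPD1, IQGAP1, IDH1 and MT-CO1, at distances of 0.35 to 0.46. MT-CO1, the mitochondrially encoded oxidase subunit, had 314 and 396 counts in S_PXT1_K118R and S_PXT1 against 1109, 1088 and 896 in WT_K118R, WT and PMSCV. For CBX5 they were PPP2R2A, PUF60, RPL11, ZFAND5 and DDX46, at distances of 0.06 to 0.10, which also varied little.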

How the data were processed

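For each of the 5 libraries the authors deposited raw counts and FPKM (counts scaled by length and depth), per the file headers. Tools listed in the submitters' processing notes, without their roles, are HISAT2 2.2.1, cutadapt 1.9 and FastQC. Counter, strand setting, build and annotation were not given in the sources used here. There were 0 value columns without a library. Library sizes carried TMM factors (trimmed mean of M values, edgeR 4.0.16, R 4.3.3). Folds are of scaled counts, with the exact 95% interval of a ratio of 2 Poisson counts; levels carry exact Poisson, shares exact Clopper-Pearson and ratios of folds exact conditional intervals (scipy 1.17.1). The reads carry no stated molecular identifiers, so they are not independent molecules. Genes past 2-fold were counted on log2(CPM + 1), among 13352 genes averaging 1 CPM or more and 1547 averaging 20 counts or more. Of deposited FPKM values above 0, 99.99% came to within 0.01 (log2) of the count over a length fixed per gene and a factor fixed per library. All 7 members passed the 1 CPM filter. The interval and fold script was tested on simulated data. DESeq2 1.42.0 size factors, totals, FPKM, pseudocounts, filters, thresholds and summed models were the alternatives.

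Named genes were all members, their pseudogenes and overlapping models, up to 4 genes per list with the largest K118R ratios among the 1547, and the 5 nearest profiles of CBX1, CBX3 and CBX5. A few genes falling under it are not reported here. Genes named outside it are PCGF5, SUV39H2, SETDB1 and CDKN2A, the genes with opposite K118R differences, and the markers. Members and lists were chosen with earlier results of these data known.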

Additional observations from a re-analysis of the deposited data

Results flagged for a closer look

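For each of the 5 genes with counts in all libraries, the K118R folds lay on opposite sides of 1 in the 2 backgrounds. The intervals of CBX3, CBX5, CBX2 and CBX6 include 1 in both backgrounds. With pseudogene rows added, both CBX3 folds were above 1, at 1.15 in the S_PXT1 background and 1.13 in the WT background. Each contrast had 1 library on each side, so the difference between backgrounds was not tested. The ratio of the WT fold to the S_PXT1 fold was 7.23 for CBX1 (4.91 to 10.8), and CBX1 was chosen for it. For CBX3 it was 1.68 (0.300 to 10.2), for CBX5 1.23 (0.767 to 1.99), for CBX2 0.442 (0.160 to 1.19) and for CBX6 0.561 (0.186 to 1.63). These 4 intervals of counting error include 1. CBX8 also had opposite signs, on 1 count against 0 and 1 against 2, and no ratio is given for it.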

How the results depend on the processing

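No paired analysis was possible because each group held 1 library. No library could be left out within a group for the same reason. For CBX1, each of the 8 folds stayed within its counting interval under DESeq2 size factors, total counts, FPKM with and without TMM factors, summed overlapping models and added pseudogenes. Under these, CBX1 was 2.57-fold to 2.64-fold lower with S_PXT1_K118R than with S_PXT1, and 2.74-fold to 2.78-fold higher with WT_K118R than with WT. Adding pseudogene rows moved CBX3 to 0.531 for S_PXT1_K118R over WT_K118R, against 0.279, to 0.465 for S_PXT1_K118R over PMSCV, against 0.276, and to 1.15 for S_PXT1_K118R over S_PXT1, against 0.807. Without CBX1, the HP1 sum had folds of 0.915 for S_PXT1_K118R over S_PXT1, 1.18 for WT_K118R over WT, 0.969 for S_PXT1 over PMSCV, 1.06 for WT_K118R over PMSCV, 1.08 for S_PXT1 over WT and 0.840 for S_PXT1_K118R over WT_K118R.

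The count of CBX genes past the threshold changed with several settings, through CBX7 and CBX8, through CBX2 and CBX6 at 1.5-fold, through CBX2 and CBX3 with DESeq2 size factors, through CBX3 with a pseudocount of 5 CPM, and through CBX1 and CBX3 at 3-fold. At 1.5-fold, 3 were higher for S_PXT1_K118R over S_PXT1, 2 lower for WT_K118R over WT, 2 higher for S_PXT1_K118R over PMSCV and 1 higher for S_PXT1_K118R over WT_K118R. At 3-fold, 0 were lower for S_PXT1_K118R over S_PXT1, 0 higher for WT_K118R over WT, 0 lower for S_PXT1 over PMSCV and 0 higher for S_PXT1 over WT. With a pseudocount of 5 CPM, 0 were higher for S_PXT1_K118R over S_PXT1, 0 for S_PXT1_K118R over PMSCV and 1 for WT_K118R over PMSCV. At a mean of at least 5 CPM, which drops CBX7 and CBX8, 0 were higher for S_PXT1_K118R over S_PXT1, 0 for S_PXT1_K118R over PMSCV, 0 for WT over PMSCV and 1 for WT_K118R over PMSCV, while 0 were lower for WT_K118R over WT and 1 for S_PXT1 over WT. With DESeq2 size factors, 2 were higher for S_PXT1_K118R over PMSCV. Over all genes, the share past 2-fold ran from 8.39% to 20.3% higher and 17.6% to 44.9% lower over the 8 comparisons, and with a pseudocount of 5 CPM from 3.57% to 11.6% higher and 8.25% to 31.7% lower. At a mean of at least 5 CPM, with fewer genes tested, it ran from 5.90% to 16.0% higher and 14.4% to 44.8% lower. Depth limits CBX3, CBX2 and CBX6 to differences of several-fold and leaves CBX7 and CBX8 unordered.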
